A study of Caenorhabditis elegans with 2 samples.

Results

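The X chromosome of Caenorhabditis elegans held 218 of the 1244 reproducible binding peaks of the ONECUT homeobox protein CEH-39, which are described here against the 1026 peaks on the 5 autosomes. The X peaks were chosen by chromosome alone, as all peaks on X in the deposited list that passed the authors' threshold on the irreproducible discovery rate (IDR), a measure of how reproducibly peaks rank across replicates. The data came from chromatin immunoprecipitation and sequencing (ChIP-seq) of whole embryos of mixed stage and pooled sex from strain OP169, genotype unc-119(ed3) III; wgIs169. The transgene wgIs169 supplies CEH-39 fused to eGFP, and the genotype lists no mutation of the endogenous ceh-39. The antibody field of the labels names ceh-39. There was 1 group with 2 biological replicates, so nothing was compared between treatments, and each comparison is between X peaks and autosomal peaks of the same embryos. Because whole embryos were used, binding in few cells and weak binding in many cannot be told apart.

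CEH-39 is encoded on X and is known as an X signal element, one of the X-linked proteins whose dose tells the embryo how many X chromosomes it has. X signal elements repress xol-1, the switch gene of sex determination, and xol-1 in turn keeps the dosage compensation complex off X. In XX embryos this complex, which resembles condensin, loads on X at recruitment elements and spreads from there, and it lowers X expression. Recruitment elements carry a motif whose core is GCGCAGGG, while ATCGAT is a core bound by ONECUT homeodomains.

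Of the X summits 10 stood within 50 bp of the recruitment core, and the stretches around them are shown first because the core was found at none of the autosomal summits. A summit is the position of highest signal within a peak. Each line gives the gene with the nearest protein-coding start, the position in ce11 (the WBcel235 assembly, sequence from RefSeq), the strand and 28 bases, with the core in capitals. The peaks of xol-1 and cest-16 each held 2 cores.
gtr-1, chrX:806664-806691, plus strand: tgcgattatcGCGCAGGGgtgtttgttg
Y41G9A.17, chrX:2997113-2997140, minus strand: taaatttatcGCGCAGGGaggaagtagc
nspc-17, chrX:14525890-14525917, minus strand: attgcctatcGCGCAGGGacagatgtgg
F20B6.9, chrX:4209256-4209283, minus strand: tgccgctatcGCGCAGGGacacctcttt
xol-1, chrX:8036391-8036418, minus strand: attttttatcGCGCAGGGacgtatgtcg
xol-1, chrX:8036425-8036452, plus strand: tttttccatcGCGCAGGGaacccttcga
cest-16, chrX:6296538-6296565, plus strand: tttacatttgGCGCAGGGggtcaccata
cest-16, chrX:6296566-6296593, plus strand: gataggtatcGCGCAGGGaagatttacc
W02H3.3, chrX:11094216-11094243, minus strand: ggaaccattcGCGCAGGGacacctcact
ins-39, chrX:1345046-1345073, plus strand: aatgtcattcGCGCAGGGcagctgagcc
R04E5.9, chrX:8811095-8811122, minus strand: aacacgcgacGCGCAGGGagagggacgc
dpy-23, chrX:4395605-4395632, plus strand: aaggagacaaGCGCAGGGagaactggtg
Read 5′ to 3′, a C stood before the core in 10 of the 12 matches, a T before that C in 9, and an A after the core in 9. The distance from the middle of the core to the summit had a median of 17 bp and was at most 41.5 bp.

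The ONECUT core was looked for in the same windows, and 5 of the strongest X peaks that hold it are shown as 101 bases centred on the summit on the plus strand, with ATCGAT and, in the xol-1 peak, the recruitment core of either strand in capitals.
madd-3, chrX:14297266-14297366: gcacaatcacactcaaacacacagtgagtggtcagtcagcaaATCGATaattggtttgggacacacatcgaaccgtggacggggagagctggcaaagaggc
zfp-3, chrX:1446829-1446929: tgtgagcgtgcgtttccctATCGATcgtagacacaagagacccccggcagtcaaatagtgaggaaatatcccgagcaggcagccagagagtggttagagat
ceh-39, chrX:1857927-1858027: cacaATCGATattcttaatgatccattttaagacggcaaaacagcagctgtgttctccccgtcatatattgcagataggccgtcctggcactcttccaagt
K04C1.2, chrX:14238432-14238532: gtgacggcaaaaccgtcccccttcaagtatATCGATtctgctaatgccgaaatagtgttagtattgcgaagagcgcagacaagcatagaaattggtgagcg
xol-1, chrX:8036358-8036458: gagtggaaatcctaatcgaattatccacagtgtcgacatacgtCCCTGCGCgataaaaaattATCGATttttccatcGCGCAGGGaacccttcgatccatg
In the xol-1 peak the 2 recruitment cores pointed in opposite directions, with ATCGAT between them. A pair of the strongest X peaks without ATCGAT or the recruitment core are shown for contrast, with no capitals.
rab-14, chrX:15606990-15607090: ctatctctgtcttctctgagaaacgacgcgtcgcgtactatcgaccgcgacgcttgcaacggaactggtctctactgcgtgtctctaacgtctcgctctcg
eef-1A.2, chrX:7823251-7823351: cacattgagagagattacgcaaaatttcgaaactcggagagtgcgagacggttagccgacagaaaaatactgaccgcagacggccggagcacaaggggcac

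X held 17.5% of all IDR peaks (95% Clopper-Pearson interval 15.5 to 19.8%). It holds 17.7% of chromosome length, 13.7% of protein-coding genes (2731 of 19973) and 45.1% of tRNA genes (276 of 612). The deposited signal value has no stated scale and was used to rank and describe peaks within a list. Among the strongest 100 peaks X held 21 in the pooled list, 18 in the list of replicate 1 and 21 in the list of replicate 2. Over the whole relaxed lists, which include background, its share was 16.6% in the pooled list, 15.3% in replicate 1 and 18.9% in replicate 2. In each of these lists X's share of peaks lay above its share of genes, and on either side of its share of length. These intervals cover counting error only, and the sequencing depth is unknown because the deposited files hold no read counts.

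**Figure D1:**
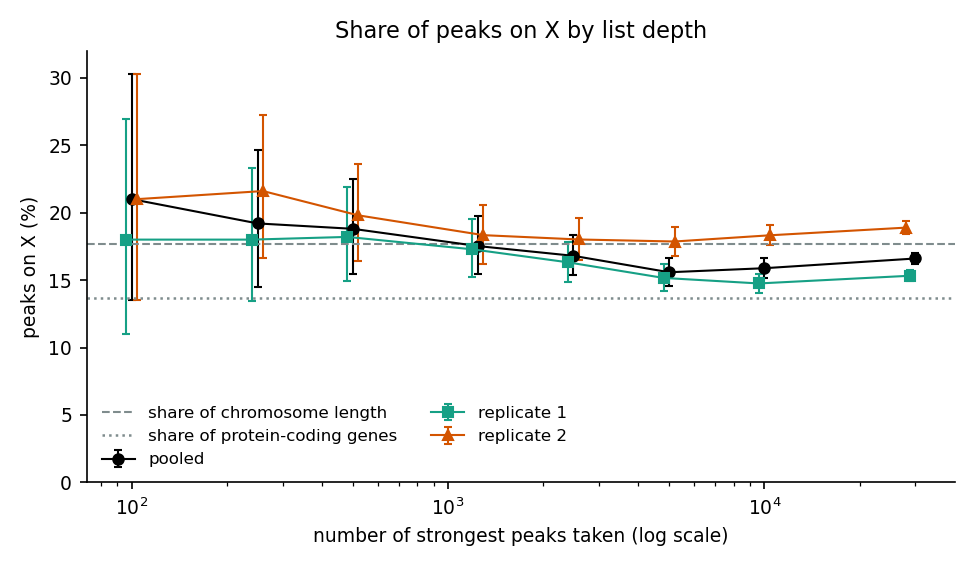
Share of peaks on X (vertical axis, percent, bars are 95% Clopper-Pearson intervals) against the number of strongest peaks taken from the pooled and the 2 replicate lists (horizontal axis, log scale). The dashed line is X's share of chromosome length, 17.7%, and the dotted line its share of protein-coding genes, 13.7%; the strongest 1244 peaks had 17.5% on X in the pooled list, 17.3% in replicate 1 and 18.3% in replicate 2.

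The X peaks were about as strong as the autosomal peaks in the pooled signal. The median signal was 112 on X and 108 on autosomes, with a range of 76.6 to 368 on X and 76.5 to 554 on autosomes. Of X peaks, 113 (51.8%) lay above the autosomal median, against 513 of 1026 autosomal peaks (50%), a share that this cut fixes in advance. The difference fell short of the threshold of 0.05 (Fisher's exact test, two-sided as throughout, with adjusted p = 0.737). The test took that fixed share as an observed count. In replicate 1 all 218 X peaks and 1020 of the 1026 autosomal peaks had a q-value under 0.05. In replicate 2, 115 X peaks (52.8%) and 476 autosomal peaks (46.4%) did. The strongest 1244 peaks of replicate 2 overlapped 139 X peaks (63.8%, interval 57 to 70.2%) and 576 autosomal peaks (56.1%, 53.04 to 59.2%), which missed the threshold after adjustment over 9 such tests (p = 0.0417 by Fisher's exact test, 0.0751 when adjusted). For replicate 1 the shares were 86.2% on X and 89.5% on autosomes (Fisher's exact test with adjusted p = 0.286). Such p-values treat peaks as units; all peaks come from the same 2 embryo samples, and the value in each replicate's own list is the measure of how samples differ.

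X summits lay in the window of a gene start less often than autosomal summits, and more often in intergenic sequence. The window reached 1000 bp upstream and 200 bp downstream of the start of any protein-coding transcript. Intergenic here means outside these windows and outside protein-coding genes, so a summit inside a tRNA gene can be intergenic. It held 137 of 218 X summits (62.8%, interval 56.1 to 69.3%) and 794 of 1026 autosomal summits (77.4%, 74.7 to 79.9%), a difference of -14.5 points (Fisher's exact test with adjusted p = 4.56e-05). Intergenic summits numbered 63 on X (28.9%) and 136 on autosomes (13.3%, Fisher's exact test with adjusted p = 3.44e-07). Of the 63 on X, 17 lay within 500 bp of a tRNA gene and 46 lay farther away, so this difference overlaps the tRNA difference given below. The 136 on autosomes were not split in this way. The start-window share was lower on X than on each autosome, where it ran between 73.8% on III and 80% on V. It was 65.1% on X and 77.3% on autosomes among the strongest 1244 peaks of replicate 1, and 52.6% and 67.7% among those of replicate 2. Sequence differs in the same direction: such windows cover 21.8% of X and 27.1% of autosomes, and intergenic sequence 32.3% and 23.6%. Divided by that coverage, the start-window share was 2.88-fold on X and 2.86-fold on autosomes, and the intergenic share 0.895-fold and 0.562-fold.

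**Figure D2:**
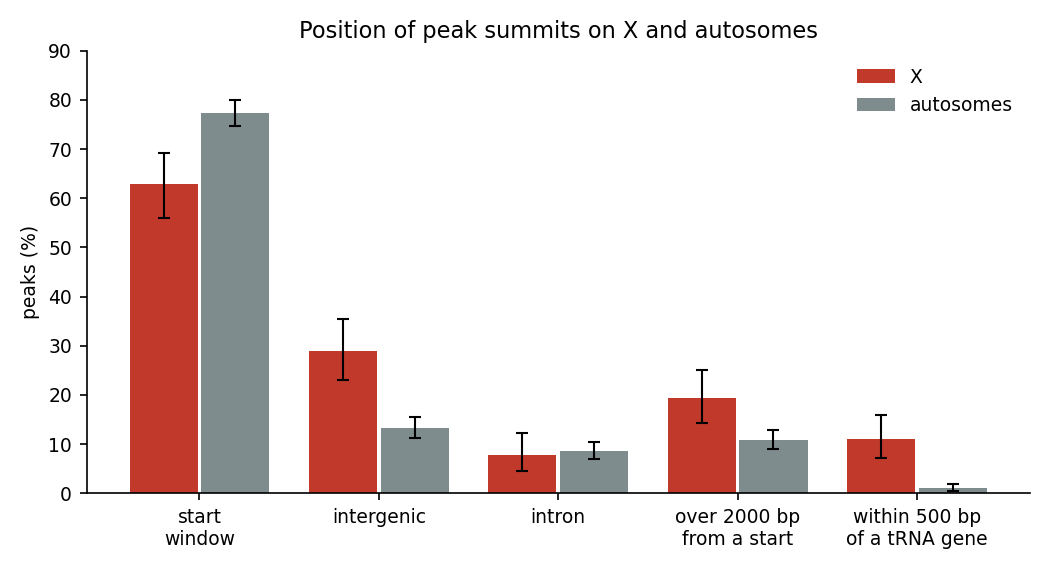
Share of peaks (vertical axis, percent, bars are 95% Clopper-Pearson intervals) by position of the summit for 218 X peaks (red, left) and 1026 autosomal peaks (grey, right); the last 2 classes can overlap the first 3. Start windows held 62.8% of X and 77.4% of autosomal summits, and tRNA genes lay within 500 bp of 11.01% of X and 1.07% of autosomal summits.

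Introns held 17 X summits (7.80%) and 88 autosomal summits (8.58%), a difference of -0.779 points (Fisher's exact test with adjusted p = 0.789, not past the threshold). Outside start windows X had 1 summit in a 5′ UTR, at hrg-1, a haem transporter gene, and 0 in coding sequence or 3′ UTRs, which allows a share of up to 1.68% for each (upper bound of the Clopper-Pearson interval). The median distance to the nearest start was 405 bp on X and 260 bp on autosomes, and 171 X summits (78.4%) lay upstream of that start, against 83.1% on autosomes. Over 2000 bp from any start were 42 X summits (19.3%) and 110 autosomal summits (10.7%; Fisher's exact test with adjusted p = 0.00199). Over 5000 bp the counts were 10 X summits (4.59%) and 19 autosomal summits (1.85%; Fisher's exact test with adjusted p = 0.0532, not past the threshold). X sequence itself lies less in start windows, 21.8% against 27.1% on autosomes. The distance of such sequence from starts was not measured, so the summit distances are not set against it.

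**Figure D3:**
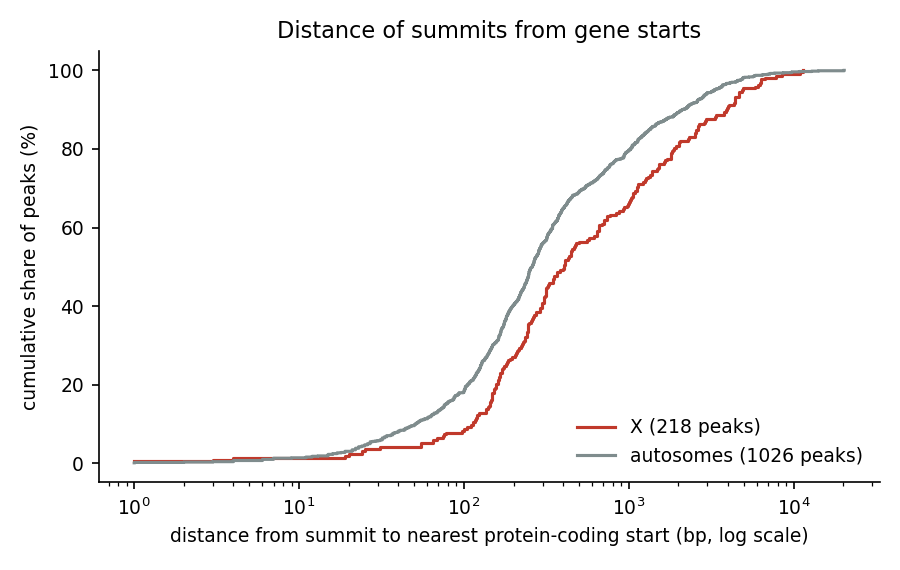
Cumulative share of summits (vertical axis, percent) by distance to the nearest protein-coding start (horizontal axis, bp, log scale, distances of 0 drawn at 1), for X (red) and autosomes (grey). The X line runs below the autosomal line over most of the range, with medians of 405 bp on X and 260 bp on autosomes.

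Start windows that serve a pair of genes facing away from each other were rarer among X peaks. Of the X summits in start windows 13 (9.49%, interval 5.15 to 15.7%) lay upstream of genes on both strands, against 303 (38.2%, 34.8 to 41.6%) on autosomes. Of the sequence in start windows, 2.57% on X and 7.27% on autosomes is upstream of genes on both strands, so the shares stood 3.70-fold and 5.25-fold above it. This was a description without a test. The strongest such X peak (signal 349.6) lay 405 bp upstream of rab-14, a small GTPase of endosome traffic, and 929 bp upstream of nipi-3, a Tribbles pseudokinase. The next (164) lay 69 and 212 bp upstream of H35N09.1 and H35N09.2. Others stood between tap-1 and C44H4.4 (126) and between rbg-1 and plp-2 (123).

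In all, 153 of 2731 X protein-coding genes (5.6%) had an X summit in a start window, against 1138 of 17242 autosomal genes (6.6%). When a peak counted for the nearest start alone, the shares were 4.94% on X and 4.49% on autosomes, so the direction turned with the assignment. The strongest X peak (signal 368) had its summit 657 bp upstream of madd-3, which encodes a protein kinase. Its signal was 323 in replicate 1 (rank 13) and 49.9 in replicate 2 (rank 103). The rab-14 peak ranked 35 and 31 in the 2 lists. The zfp-3 peak, at a zinc-finger gene, had a signal of 333 in the pooled list, 313 in replicate 1 (rank 15) and 28.7 in replicate 2 (rank 562). These 3 were the strongest X peaks in start windows, and 2 of them carried ATCGAT.

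Further down the 20 strongest X peaks, start-window peaks stood at eef-1A.2 (signal 290.3), which encodes translation elongation factor 1A, puf-9 (266), a Pumilio-family RNA-binding protein, and bra-1 (254), a homologue of a human protein that associates with a BMP receptor. Those of nspc-17 (289), K04C1.2 (262), F16B12.6 (257), serp-1.1 (249) and C02B8.6 (242) completed the start-window peaks among the 20. The eef-1A.2 peak ranked 62 in replicate 1 and 37 in replicate 2, and the bra-1 peak 129 and 30. By contrast the puf-9 peak ranked 40 and 578, and the C02B8.6 peak 64 and 547. Of the 20, 9 lay outside start windows. Of these, F55G7.5 (270) ranked 168 and 10, K02D3.1 (250.2) 143 and 28, and C30E1.4 (242) 67 and 369, and the others appear with the recruitment core and the ceh-39 locus below. The weakest X peaks lay at lev-9 (76.6), a muscle acetylcholine receptor clustering gene whose window overlaps that of the Wnt secretion gene mom-1, T14F9.2 (76.8) and M02F4.2 (77.2).

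Gene lists that earlier results of these data helped to choose held few X members, and they are given as counts beside the 5.6% of all X genes. Of 12 X genes of Rab, Arf and vesicle traffic 5 were bound. They were rab-14, sec-15 (signal 132), a subunit of the exocyst, sec-16A.2 (130.3), a protein of ER exit sites, sec-22 (89.8), a SNARE, and snx-1 (88.0), a sorting nexin. The sec-15 peak had C28G1.2 as its nearest start and lay 72 bp from a tRNA gene. The sec-22 peak had stau-1 as its nearest start, and no peak of replicate 2 overlapped it. On autosomes 17 of 74 members of that list were bound. The V-ATPase list had 2 of 3 X members bound, vha-15 (187) and vha-12 (86.1), but no peak of replicate 2 overlapped the vha-12 peak. On autosomes 3 of 17 members of the V-ATPase list were bound. Of the 2 cytosolic ribosomal protein genes on X rpl-11.2 (206) was bound, against 61 of 79 on autosomes. Of 4 X histone genes the linker histone gene his-24 (119) was bound, against 14 of 68 on autosomes. Both nuclear hormone receptor genes bound, of 23 on X, were near the threshold of the list, nhr-71 (81.5) and nhr-1 (79.9), and on autosomes 4 of 246 were bound.

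Single X members were bound in 6 further lists. They were unc-84 (189), a SUN-domain protein of the nuclear envelope, ins-39 (149.8), an insulin-like peptide, ceh-40 (122), a homeobox gene, glr-6 (120.1), a glutamate receptor, cdk-11.2 (98.9), a kinase, and ucr-2.1 (97.8) of the respiratory chain. The glr-6 peak had asg-2 as its nearest start and ranked 417 in replicate 1 and 3132 in replicate 2. The ucr-2.1 peak had nmat-1 as its nearest start. Bound were 1 of 16 unc genes (6.25%) and 1 of 34 neuropeptides and insulins (2.94%). For homeobox ceh genes it was 1 of 18 (5.56%), and for ion channels and receptors 1 of 39 (2.56%). These shares lay near or below the 5.6% of all X genes. The replication and cell cycle list and the respiratory chain list had 2 X genes each. None was bound on X in the lists of 27 collagens, 13 chromatin genes, 6 lin genes, 5 protein kinases, 2 let genes and 3 ONECUT genes. These lists take members by gene-name prefix and leave out bound X genes of like function, such as the kinase gene madd-3 and the histone demethylase genes lsd-1 (92.9) and utx-1 (111). On autosomes 13 of 48 chromatin genes and 13 of 41 lin genes were bound. For 27 collagens with 0 bound, a share of up to 12.8% lies within the interval, and for 13 chromatin genes up to 24.7%. X had no proteasome or aminoacyl-tRNA synthetase gene of these lists.

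Of 6 X genes of sex determination and dosage compensation, 0 had a summit in a start window, and a share of up to 45.9% lies within the interval. Some had a summit inside or within a few kb. The share of all X genes with a summit so placed was not counted, so these are descriptions of single loci. xol-1 (X, 8041313 to 8044409, plus strand) had its nearest IDR summit 4905 bp upstream, at the intergenic peak with 2 recruitment cores shown above (signal 252). fox-1, which encodes an RNA-binding X signal element, had an intronic peak (signal 139) that ranked 381 in replicate 1 and 937 in replicate 2. sex-1, a nuclear hormone receptor and X signal element, had an intronic peak (117) that ranked 461 and 1088. The nearest IDR summits of sdc-1 and sdc-2, needed for loading of the dosage compensation complex, lay 34918 bp upstream of the sdc-1 start and 83271 bp downstream of the sdc-2 start. tra-4, a zinc-finger gene of the sex determination pathway that was not on the list, had a summit 31 bp upstream of a start (signal 155), which ranked 238 and 2024.

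Around ceh-39 itself (X, 1853874 to 1856172, minus strand) 3 X peaks lay within 20 kb. One stood 1805 bp upstream of its start (chrX:1857802-1858151, signal 278) and held ATCGAT, as printed above. Its signal was 267 in replicate 1 (rank 30) and 29.6 in replicate 2 (rank 515). The next, 867 bp further on (chrX:1858669-1859018, signal 286), had its summit inside the glutamate tRNA gene T26C11.t1, with the gene T26C11.8 as the nearest start. Its signal was 198 in replicate 1 (rank 88) and 96.3 in replicate 2 (rank 17). The 2 neighbouring peaks thus stood in opposite order in the 2 replicates. The third peak (129) lay 203 bp upstream of T26C11.4. The ONECUT genes ceh-21 and ceh-41, which lie beside ceh-39, had no summit inside them.

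The recruitment core GCGCAGGG was found at X summits and not at autosomal summits. It lay within 50 bp of 10 of 218 X summits (4.59%, interval 2.22 to 8.27%) and of 0 of 1026 autosomal summits, for which a share of up to 0.359% lies within the interval. In windows of the same length centred 350 bp from the summits it occurred at 0% of X flanks and 0.146% of autosomal flanks, and in 0.0388% and 0.0263% of tiles of that length over X and autosomes. Taken alone, the strongest 1244 peaks of replicate 1 gave 9 of 215 on X and 1 of 1029 on autosomes, and those of replicate 2 gave 9 of 228 and 0 of 1016. In the strongest 250 peaks the share was 7 of 45 on X and 0 of 205 on autosomes in replicate 1, and 8 of 54 and 0 of 196 in replicate 2. Both strands were searched, and the letters share CGCAG with ACGCAG, another sequence counted below. The comparison was a description without a test, since the core was chosen with earlier results known.

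**Figure D4:**
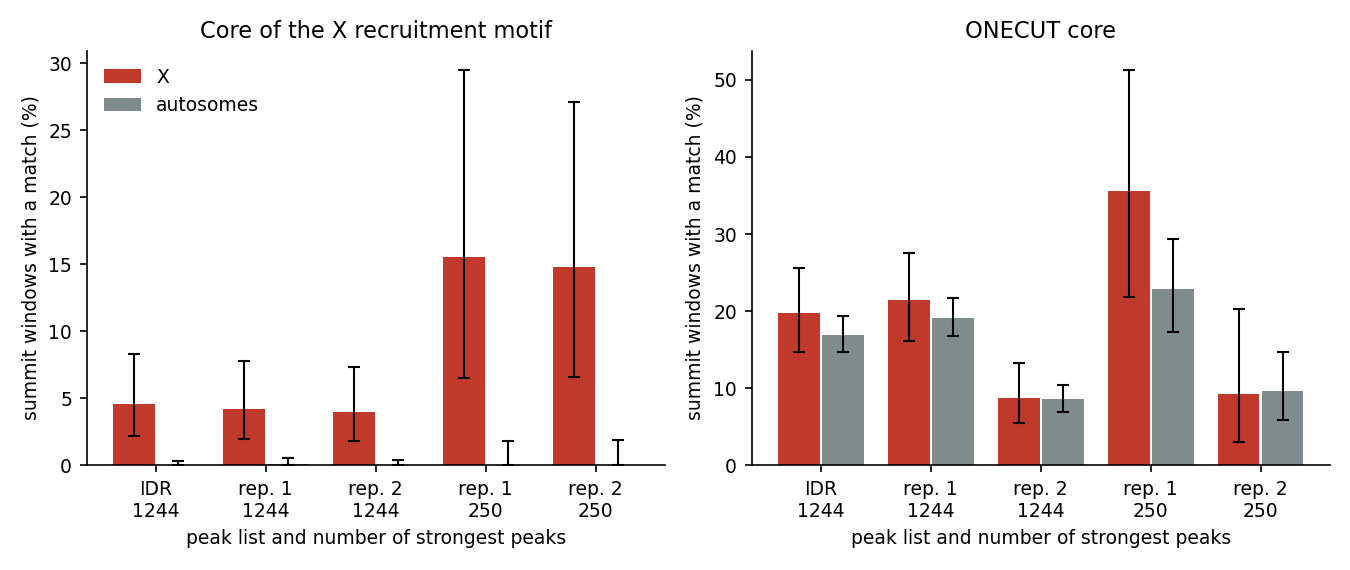
Share of summit windows (vertical axis, percent, bars are 95% Clopper-Pearson intervals) with the recruitment-motif core (left panel) or the ONECUT core (right panel) for X (red) and autosomes (grey), in the IDR list and in the strongest 1244 or 250 peaks of each replicate. The recruitment core was at 4.59% of X and 0% of autosomal IDR summits, and the ONECUT core at 19.7% and 16.96%.

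Counted the other way, X holds 81 occurrences of GCGCAGGG (4.57 per Mb) and the autosomes 233 (2.82 per Mb). IDR peaks covered 16 of those on X (19.8%, interval 11.7 to 30.1%) and 2 of those on autosomes (0.858%, 0.104 to 3.07%). With a C before the core, IDR peaks covered 12 of 33 occurrences on X (36.4%) and 0 of 44 on autosomes, for which up to 8.04% lies within the interval. The other 65 of the 81 occurrences on X had no IDR peak over them. Peaks of the relaxed pooled list, which includes background, covered 30 of the 81 on X (37.0%) and 36 of the 233 on autosomes (15.45%), a smaller contrast.

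Most of the 10 peaks with the core were strong: 7 of them were among the 54 strongest X peaks, and 9 ranked better in replicate 2 than in replicate 1. Their median rank was 164.5 in replicate 1 and 27.5 in replicate 2, against 609 and 734 for the other X peaks. The gtr-1 peak, 3906 bp from the start of a gene for a receptor-like membrane protein, had a signal of 220.1 in replicate 1 (rank 60) and 118.5 in replicate 2 (rank 5). The peak in an intron of Y41G9A.17 ranked 76 and 9, that of nspc-17 98 and 12, and that of F20B6.9 148 and 14. The xol-1 peak ranked 158 and 26, the cest-16 peak, in an intron of mom-1, 171 and 29, and the W02H3.3 peak 210 and 36. The ins-39 peak (616 and 88) and the dpy-23 peak (1325 and 439), near the gene of an AP-2 clathrin adaptor subunit, stood lower in both lists, in the same order. The R04E5.9 peak (382 and 1142) was the one of the 10 that ranked better in replicate 1, and the one whose summit lay at a start (4 bp downstream). Of the 10, 3 lay in start windows and 6 over 2000 bp from any start, against 134 and 36 of the other 208.

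**Figure D5:**
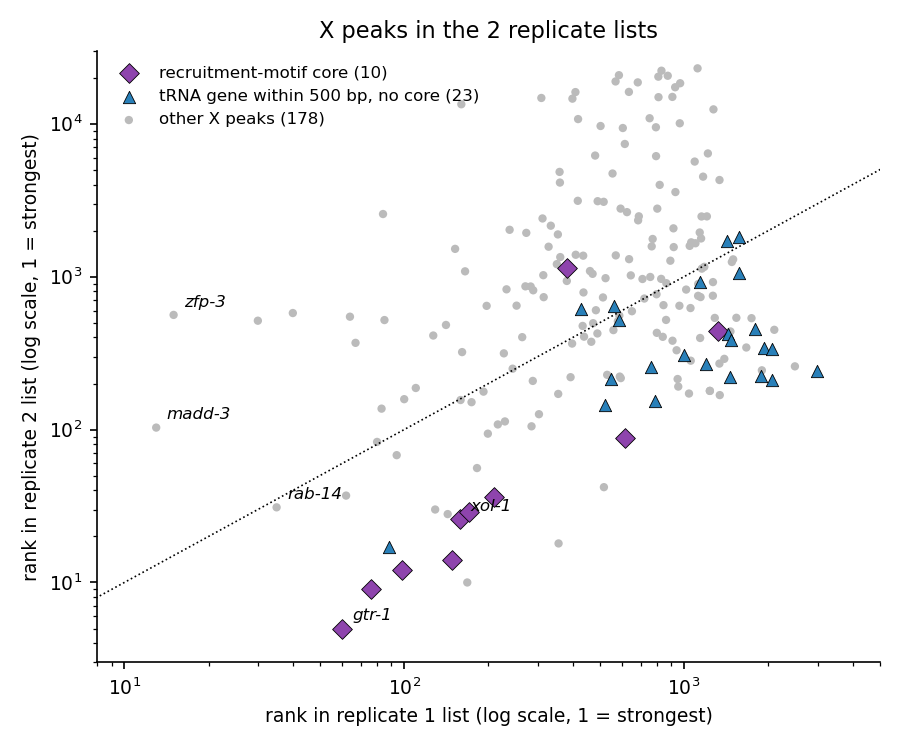
Rank of each X peak in the list of replicate 2 (vertical axis, log scale) against its rank in the list of replicate 1 (horizontal axis, log scale) for the 211 X peaks present in both; purple diamonds carry the recruitment-motif core, blue triangles lack it and lie within 500 bp of a tRNA gene, grey points are all others, and the dotted line marks equal ranks. Of the 10 diamonds 9 lie below the line, with gtr-1 at ranks 60 and 5, and zfp-3 lies far above it at 15 and 562.

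The replicates ranked X peaks differently in general. Among the 211 X peaks in both lists the signals of the 2 replicates had a Spearman rho of 0.25, and among 965 autosomal peaks 0.296; these are descriptions across peaks that share 2 libraries. Best placed in both lists were rab-14 (35 and 31), gtr-1 (60 and 5), eef-1A.2 (62 and 37), Y41G9A.17 (76 and 9) and K04C1.2 (80 and 83). The largest ratios of the 2 ranks were at M03B6.4 (160 and 13403), uggt-1 (309 and 14735), a glucosyltransferase of ER protein folding, dyf-6 (409 and 16098), an intraflagellar transport gene, zfp-3 (15 and 562) and sms-2 (399 and 14584), a sphingomyelin synthase. All 5 ranked better in replicate 1. No peak of replicate 2 overlapped 7 X peaks, led by cyn-8 (signal 180.3), a cyclophilin, and including hst-2, stau-1 and vha-12.

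Peaks near tRNA genes made up more of the X peaks than of the autosomal peaks. Within 500 bp of a tRNA gene lay 24 X summits (11.01%, interval 7.18 to 15.9%) and 11 autosomal summits (1.07%, 0.536 to 1.91%), a difference of 9.94 points (Fisher's exact test with adjusted p = 1.43e-10). In the strongest 1244 peaks of replicate 1 the shares were 6.05% on X and 0.778% on autosomes, and in those of replicate 2 14.04% and 2.46%. X is rich in tRNA genes: 1.38% of X and 0.398% of autosomal sequence lies within that distance, so the shares stood 8-fold and 2.70-fold above it. Of 276 X tRNA genes 28 (10.1%) had a summit within 500 bp, against 11 of 336 on autosomes (3.27%). Near-identical tRNA genes can share reads, which makes the placement of such peaks uncertain, and no source used here says how multiply mapped reads were treated.

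The 28 tRNA genes stood for 15 amino acids by the RefSeq annotation, and no amino acid had more than 4 (proline, of 20 on X). Of the 24 summits 10 lay inside a tRNA gene. After T26C11.t1 the strongest was the xol-1 peak, whose summit lay 277 bp from the arginine tRNA gene C18A11.t2. Those at C28G1.t1 (glutamate, signal 132) and C04E7.t1 (leucine, 131) lay in start windows, and those at C06G1.t1 (histidine, 119.5) and C02B4.t2 (tyrosine, 89.2) in introns. In 17 of the 24 the summit was intergenic, a class that looks at protein-coding genes only and so takes in summits inside tRNA genes. The 24 had a median rank of 1310 in replicate 1 and 322.5 in replicate 2, and 20 of 24 ranked better in replicate 2, against 77 of the 187 X peaks farther from tRNA genes that were in both lists. The strongest 1244 peaks overlapped 22 of the 24 in replicate 2 and 12 in replicate 1.

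The summit of T26C11.t1 is printed as 101 bases on the plus strand, chrX:1858794-1858894, because its peak is the strongest X peak inside a tRNA gene, and it holds neither ATCGAT nor the recruitment core: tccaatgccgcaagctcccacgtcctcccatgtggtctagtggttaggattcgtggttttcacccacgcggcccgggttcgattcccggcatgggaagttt

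Summits near other small RNA genes were counted too. Of 74 X miRNA genes 3 had a summit within 500 bp, and of 187 autosomal ones 14. The X peak T24D8.6 (signal 146) lay 138 bp from cel-mir-73, in the cluster with cel-mir-74, and the T01B6.1 peak (91.8) lay at cel-mir-8196a. Of snoRNA genes 1 of 33 had a summit on X, at D2021.6 beside the succinate dehydrogenase gene sdha-1 (77.2), against 43 of 313 on autosomes. Of snRNA genes 0 of 3 did on X and 16 of 126 on autosomes. The X counts are small. Shares of up to 11.4% for X miRNA genes, 15.8% for snoRNA genes and 70.8% for snRNA genes lie within the intervals. The share of all X genes with a summit within 500 bp was not counted, and no test was made.

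The ONECUT core ATCGAT lay within 50 bp of 43 X summits (19.7%, interval 14.7 to 25.6%) and 174 autosomal summits (16.96%, 14.7 to 19.4%), a difference of 2.77 points (Fisher's exact test with adjusted p = 0.42, not past the threshold). The hexamer, its own reverse complement, is rarer on X, with 214 occurrences per Mb against 408 on autosomes. In windows 350 bp from the summit it occurred at 3.67% on X and 6.43% on autosomes, so the summit share stood 5.37-fold above the flanks on X and 2.64-fold on autosomes. In replicate 1 alone these ratios were 5.75 and 2.77, and in replicate 2 alone 2.86 and 1.55. Among the 43 X peaks the median distance of the hexamer from the summit was 17.5 bp, and 26 lay in start windows, 10 in intergenic sequence and 7 in introns. Those 7 of the 17 intronic X peaks included fox-1, gid-2, lsy-2, dgk-2 and gap-2. Median signal was 132 with ATCGAT and 108 without, and 16 of the 50 strongest X peaks had it.

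Replicate 1 carried most of the ONECUT core on X as well. Of its strongest 250 peaks 16 of 45 on X (35.6%) and 47 of 205 on autosomes (22.9%) held ATCGAT, and in replicate 2 5 of 54 (9.26%) and 19 of 196 (9.69%). X peaks with ATCGAT had a median rank of 417 in replicate 1 and 774 in replicate 2, while those with the recruitment core stood higher in replicate 2.

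Further short sequences were counted in the same way. GAGAGA was at 61 X summits (28.0%) and at 24.8% of autosomal summits, against 3.90% and 6.19% of flanks. ACGCAG was at 35 X summits (16.1%) and 20.3% of autosomal summits, against 2.29% and 1.71% of flanks. ATTGAT was at 9 X summits (4.13%) and 6.24% of autosomal summits, below its flanks at 8.26% and 12.3%. GAGAGA was commoner among weaker X peaks, with 10 of the 54 strongest and 20 of the 54 weakest. When X peaks were cut into 4 classes from strongest to weakest, GCGCAGGG was at 7, 2, 0 and 1 summits and ATCGAT at 16, 10, 9 and 8. Summit windows had a median GC content of 48.5% on X and 46.5% on autosomes, and flanks 32.7% and 35.6%. No test was made of these shares.

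X peaks were spread over the whole chromosome. Each full Mb held between 6 and 21 X peaks, the most from 14 to 15 Mb and the fewest from 15 to 16 Mb, and per 100 protein-coding genes the Mb bins ran from 4.38 to 11.9. The 10 peaks with the recruitment core fell in 8 of 18 bins, with at most 2 in any. Neighbouring X summits were a median of 48388 bp apart, from 296 bp to 500485 bp. The closest pair lay in an intron of ldb-1, a LIM-domain-binding cofactor (signals 98.2 and 79.7), and both were overlapped by the same peak in each replicate. The next closest were the pair upstream of ceh-39 and a pair at K04C1.3 (95.8 and 80.5), 962 bp apart. Chained by gaps of up to 10 kb between neighbours, 64 X peaks formed 29 groups of at most 3, among them the trio of T14F9.2, vha-15 and rpl-11.2 and the trio of F55G7.5, nfya-1, a CCAAT-binding subunit, and lsd-1, a histone demethylase gene.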

How the data were processed

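The 8 deposited peak lists of 2 ChIP-seq replicates were used, ce11 for all main results and ce10 for alternatives without annotation. Per the deposited description files, the authors called relaxed lists on each replicate and on the pool with a control, and derived the IDR list from them. No source used here names the aligner, the caller or their versions; the control was not used here. The signal value and the −log10 q-value were taken as the authors deposited them. No peak ran past a chromosome end of WBcel235. Protein-coding transcripts came from Ensembl release 115, tRNA names and sequence from RefSeq. Windows of 101 bp around summits were searched on both strands. In all, 9 shares were compared between X and autosomes by Fisher's exact tests with Benjamini-Hochberg adjustment. Replicate peaks were joined by an overlap of 1 bp. The members, lists and motifs were chosen with earlier results of these data known. Named genes were the nearest starts of the 20 strongest X peaks, the strongest of each class, the 3 weakest, the closest groups, those best placed or most unlike between replicates, those near ceh-39 and xol-1, and bound list members; other genes of core, tRNA and intronic peaks, tra-4 and utx-1, were chosen after their values were seen. Alternatives changed the peak set, windows, overlap rule and gene assignment. Functions were tested on simulated data. Python 3.11.15, numpy 2.4.6, scipy 1.17.1, pandas 2.3.3 and matplotlib 3.10.9 were used.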

Additional observations from a re-analysis of the deposited data

How the results depend on the processing

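The differences between X and autosomes in start-window, intergenic and tRNA-near shares passed the test in the same direction under every alternative run for them, including each replicate alone. Summits over 2000 bp from a start did too, except with a limit of 5000 bp (2.74 points, Fisher's exact test with adjusted p = 0.0532). Of the differences that did not pass, 2 changed sign. The intronic share differed by 0.209 points in the strongest 1244 peaks of replicate 1 alone and by -2.12 points in those of replicate 2 alone. The share overlapped by the strongest peaks of replicate 1 differed by 0.196 points in the 622 strongest IDR peaks, 1.72 points in the 2488 strongest pooled peaks and 0.585 points against the whole relaxed list. The share of X genes with a summit in a start window ran from 4.72% to 5.68% with one replicate alone, and was 3.00% in the strongest 622, 9.96% in the pooled 2488, 4.76% with 500 bp upstream and 7.10% with 2000 bp upstream. The ratio of median signal, X over autosomes, was 1.03 in the IDR list and 1.01 in its strongest 622, against an SD of 0.00495 over the replicates' ratios. In each case the cause was not tested. In the other 72 of 83 alternatives, tested differences kept direction and side of the threshold, and values without a test stayed within the 95% interval of the main value or, for the signal ratio, that SD. One of these still turned the order of X and autosomes: with a peak counted for the nearest start alone, 4.94% of X genes and 4.49% of autosomal genes had a summit, against 5.6% and 6.6%. No paired analysis was possible because the labels give 1 group. Depth is unknown, so differences in peaks with weak signal are limited by counts of peaks alone.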

Other observations

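Some of the X peaks highest in replicate 2 held the recruitment core with 1 letter changed. Of the 15 X peaks ranked 50 or better there, a limit chosen after the values were seen, 7 held GCGCAGGG within 50 bp of the summit, and 4 more held it with 1 letter changed, those of F55G7.5, F22H10.2, K02D3.1 and ZK899.6. Of the other 4, 1 lay in a tRNA gene (T26C11.8) and 3 in start windows (bra-1, rab-14 and eef-1A.2). By comparison, the 15 X peaks best placed in replicate 1 included 2 with the exact core, 10 in start windows and 5 with ATCGAT, against 2 with ATCGAT in replicate 2. Cores with 1 letter changed were not counted among those of replicate 1. The 4 altered matches at the replicate 2 peaks are printed 5′ to 3′ with the altered core in capitals and the change counted from 1 at the first letter of GCGCAGGG.
F55G7.5 (G1A), chrX:11937531-11937558, plus strand: ggaggtacaaACGCAGGGaagagaatta
F22H10.2 (G8A), chrX:16682089-16682116, minus strand: gaacaccatcGCGCAGGAacattgggca
K02D3.1 (C4A), chrX:13700894-13700921, minus strand: agacatttagGCGAAGGGcaatagtatt
ZK899.6 (C4A), chrX:9465873-9465900, plus strand: gaaaatttagGCGAAGGGagagatactg
Allowing up to 1 change, the core lay at 34 of 218 X summits (15.6%, 95% Clopper-Pearson interval 11.1 to 21.1%) and 74 of 1026 autosomal summits (7.21%, 5.71 to 8.97%), against 1.15% and 1.02% of flanks. The changes G1A and G8A were not confined to X. G1A was at 2 X summits (0.917%) and 4 autosomal summits (0.390%), and G8A at 1 (0.459%) and 2 (0.195%).

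Among the 24 single changes, one differed between X and autosomes about as much as the exact core did. GCGAAGGG (C4A) lay at 8 of 218 X summits (3.67%, interval 1.60 to 7.10%) and 1 of 1026 autosomal summits (0.0975%, 0.00247 to 0.542%), with 0% of X flanks and 0.0975% of autosomal flanks. It occurs 7.90 times per Mb on X and 5.94 times on autosomes. In the strongest 1244 peaks of replicate 1 it was at 9 of 215 X summits and 0 of 1029 autosomal summits, and in those of replicate 2 at 9 of 228 and 1 of 1016. Of the 8 X peaks, 5 also held the exact core, so 13 X peaks held one or the other. The 8 had median ranks of 159.5 in replicate 1 and 28.5 in replicate 2, and 1 lay in a start window. This sequence was picked after its counts were seen, and no test was made of it. The strongest 3, which stood beside an exact core, and that of fbxb-58, which had none, read as follows.
Y41G9A.17, chrX:2997062-2997089, minus strand: attatttatcGCGAAGGGaggtgtacct
nspc-17, chrX:14525915-14525942, plus strand: aatagtcatcGCGAAGGGacacattttg
F20B6.9, chrX:4209282-4209309, plus strand: caattttatcGCGAAGGGagctcaggtg
fbxb-58, chrX:1627096-1627123, plus strand: ttctcccatcGCGAAGGGatactttcgc
These 4 have the letters atc before the match and the other 4 of the 8 do not; among the 12 exact cores printed in the report 7 do.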
